A study of Homo sapiens with 6 samples.

Results

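The genes described here are 10 genes of the endoplasmic reticulum (ER) chaperones and the unfolded protein response: HSPA5, HSP90B1, DNAJB9, HERPUD1, XBP1, SDF2L1, HYOU1, CALR, PDIA4 and EDEM1. They were chosen by name, and all 10 were found among the 23228 gene rows of the deposited table. RNA had been sequenced from SaOS-2 cells, a human osteosarcoma line described in the study as lacking functional RB and p53, which carried a p21 vector switched on by doxycycline. The p21 OFF group is 3 libraries of such cells left untreated. The p21 ON group is 3 libraries of the same cells given doxycycline at 1 μg/ml for 24 h. Both groups carry the vector and share the loss of RB and p53, and whether the line is a single clone is not given in the sources used here. The study used these cells to look at cell cycle genes where RB is missing, and the comparison described here is that of the ER folding genes in the same libraries. Cells that lack the vector but received doxycycline were not analysed here, so effects of the drug and of p21 cannot be told apart.

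The ER folds proteins that are bound for the cell surface, the outside and other compartments of the secretory pathway. When unfolded proteins build up there, the sensors ATF6, IRE1 (gene ERN1) and PERK (gene EIF2AK3) start the unfolded protein response. ATF6 and the spliced form of XBP1 raise chaperones, folding enzymes and degradation factors, and PERK slows translation and raises the transcription factors ATF4 and CHOP (gene DDIT3). Bone-forming cells secrete large amounts of collagen and other matrix proteins and depend on this machinery.

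ATF6 and XBP1 are known to act through short promoter elements, and these were looked for in the member promoters. The members were chosen as genes of the response that these factors drive. The counts below therefore describe the members and are not a test. RefSeq promoter windows of the build GRCh38.p14, from 250 bases upstream of a transcription start to 50 bases downstream, were found for all 10 members. There were 12 windows in all, since PDIA4 and XBP1 have more than 1 start. The ER stress response element (ERSE) was searched on both strands as CCAAT, any 9 bases and CCACG, the ERSE-II as ATTGG, any 1 base and CCACG, and the unfolded protein response element (UPRE) as TGACGTGG. The ERSE letters were found in 4 members, HSPA5, HSP90B1, CALR and XBP1, against 0.0769% of the 35116 windows of all genes. The ERSE-II letters were found in 3 other members, HYOU1, HERPUD1 and SDF2L1, against 0.0541% of all windows. The UPRE letters were in HYOU1 alone among the members, overlapping its farther ERSE-II, and in 0.729% of all windows. The shorter CCAAT box stands in 34.6% of all windows and in at least 1 window of each of the 10 members. DNAJB9, PDIA4 and EDEM1 held no exact match to any of the 3 longer elements in these windows. Copies with a changed base were not searched for, in these or in the other members. None of the 3 longer elements was by itself found in most of the members. The stretches that hold the elements are printed 5′ to 3′ on the strand of the gene, with the elements in capitals. Each runs at least 12 bases beyond its elements on either side.
HSPA5, chr9:125241379-125241421, minus strand: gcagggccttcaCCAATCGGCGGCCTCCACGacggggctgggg
HSP90B1, chr12:103930204-103930351, plus strand: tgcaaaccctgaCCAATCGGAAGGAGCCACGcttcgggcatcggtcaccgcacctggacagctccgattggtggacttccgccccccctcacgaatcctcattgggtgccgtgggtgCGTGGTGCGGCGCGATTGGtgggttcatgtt
CALR, chr19:12938372-12938414, plus strand: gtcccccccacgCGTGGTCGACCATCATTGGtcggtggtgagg
XBP1, chr22:28800591-28800633, minus strand: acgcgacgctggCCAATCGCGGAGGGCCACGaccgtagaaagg
HYOU1, chr11:119057262-119057405, minus strand: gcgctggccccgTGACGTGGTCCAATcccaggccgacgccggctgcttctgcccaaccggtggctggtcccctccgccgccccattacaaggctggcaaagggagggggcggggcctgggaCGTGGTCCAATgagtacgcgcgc
HERPUD1, chr16:56932013-56932047, plus strand: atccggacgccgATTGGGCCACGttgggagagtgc
SDF2L1, chr22:21642102-21642136, plus strand: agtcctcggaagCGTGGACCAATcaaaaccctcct

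**Figure D1:**
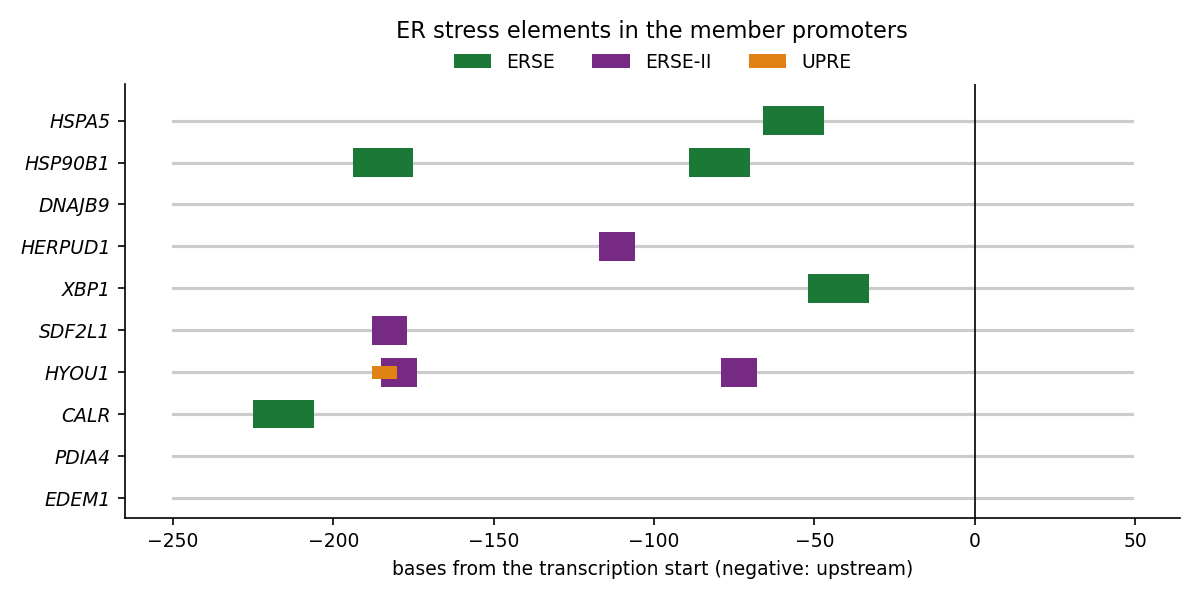
Positions of the ERSE, ERSE-II and UPRE letters in the promoter windows of the 10 members, with the distance in bases from the transcription start on the horizontal axis (negative values are upstream). Each grey line is the window of 1 gene, both starts of PDIA4 and XBP1 being drawn on 1 line, and coloured blocks mark elements on either strand. HSP90B1 holds 2 ERSE blocks and HYOU1 2 ERSE-II blocks, and the lines of DNAJB9, PDIA4 and EDEM1 are empty.

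The libraries held 12795490 to 21975045 reads on genes in the p21 OFF group and 12918390 to 16630552 in the p21 ON group, as recovered from the normalized counts. CDKN1A, the gene of p21, had 1187 to 1355 normalized counts in p21 OFF libraries and 40470 to 46739 in p21 ON libraries, where reads of the vector and of the cells' own gene are counted together. Of 10 osteoblast lineage markers, 7 had over 10 normalized counts in every library, among them RUNX2 at 3030 to 3750, ALPL at 35400 to 38900 and SPARC at 19200 to 20300 normalized counts. COL1A2, SPP1 and BGLAP are listed under 10 normalized counts in every library, and whether these low values come from the cells or from the counting was not tested. The summed level of the osteoblast markers was 73280 to 76460 in p21 OFF and 74490 to 77790 in p21 ON libraries, and the 3 blood cell markers summed to at most 12.6 and 16.3. The 3 epithelial markers summed to 2090 to 2586 with p21 OFF and 2446 to 2750 with p21 ON, the 3 endothelial markers to 62.8 to 69.1 and 73.1 to 104.5, and the 2 muscle markers to 8.79 to 10.2 and 12.2 to 17.5. Within these lists KRT18 had 1770 to 2430 and EPCAM 292 to 374 normalized counts, while CDH1, CDH5 and CD3E had at most 5, 1 and 1 reads in any library. Of the 21 markers of all 5 lists, VWF of the endothelial list was called higher (51.5 to 90.3 normalized counts, log2 fold change 0.50, limma adjusted p = 0.0333) and IBSP of the osteoblast list lower (95.5 to 139.0 normalized counts, log2 fold change -0.38, limma adjusted p = 0.0264). Their part in the results was not tested.

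Before any comparison between the groups, the members were set in order of level per length, as normalized counts per kilobase of the canonical transcript. CALR, the gene of the lectin chaperone and calcium store calreticulin, stood highest with 23590 ± 912.6 per kilobase (SD, n = 3) in p21 OFF and 23080 ± 780.8 (SD, n = 3) in p21 ON libraries. HSP90B1, the HSP90 chaperone of the ER, followed with 5843 ± 352.0 and 4856 ± 134.6 per kilobase (SD, n = 3 each), and HYOU1 with 4550 ± 119.8 and 4446 ± 90.8. HSPA5, which encodes BiP, the main HSP70 of the ER, had 3159 ± 125.6 and 2887 ± 109.1 per kilobase (SD, n = 3 each). PDIA4, a protein disulfide isomerase, had 3100 ± 100.9 and 2875 ± 109.8 per kilobase, and its range over the 6 libraries overlapped that of HSPA5. The regulators and low-level co-chaperones lay well below these folding proteins. XBP1 had 626.8 ± 38.6 and 551.5 ± 14.98 per kilobase (SD, n = 3 each), SDF2L1 388.3 ± 30.9 and 342.8 ± 31.5, and HERPUD1 248.6 ± 13.6 and 248.8 ± 2.69. The ranges of HERPUD1 and EDEM1, at 221.6 ± 9.62 and 246.9 ± 15.4 per kilobase (SD, n = 3 each), overlapped. DNAJB9 was the lowest with 58.0 ± 7.38 and 58.9 ± 4.88 per kilobase (SD, n = 3 each). All other neighbours in this order were apart in all 6 libraries.

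**Figure D2:**
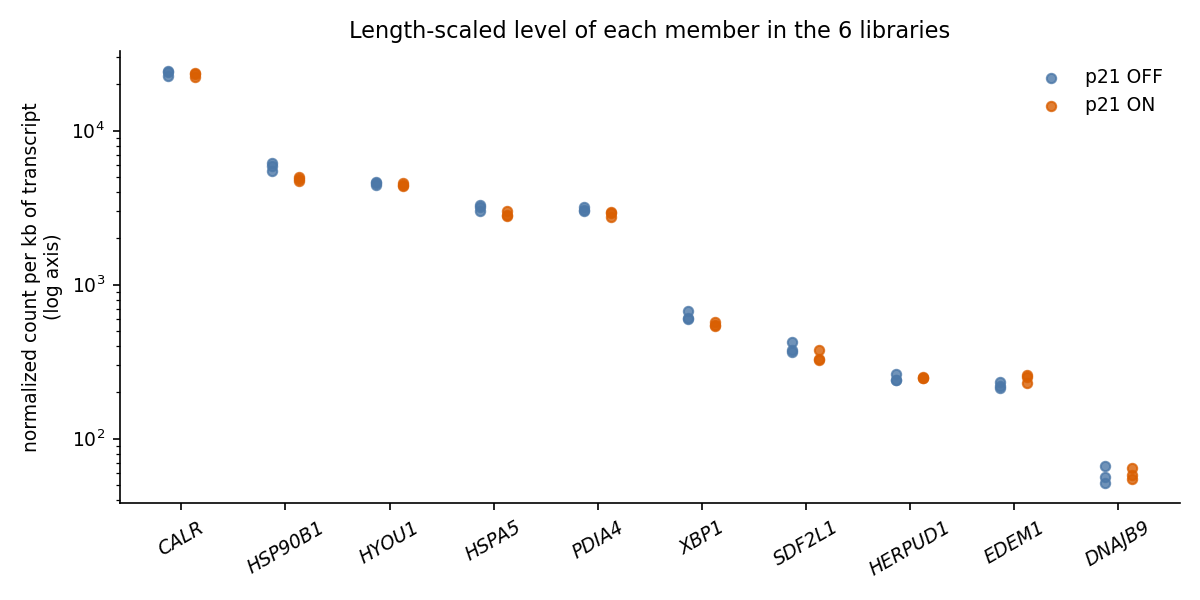
Level of each member per kilobase of its canonical transcript, on a log axis, with a point for each of the 3 p21 OFF and 3 p21 ON libraries. CALR lies near 23590, HSP90B1, HYOU1, HSPA5 and PDIA4 lie between 2752 and 6148, and DNAJB9 lies lowest.

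Of the 10 members, HSP90B1 was the only gene called between p21 ON and p21 OFF cells in the limma fit over 13255 genes, and it was lower. No member was called higher. An adjusted p-value under 0.05 called 12.7% of all genes tested lower and 10.5% higher, 23.2% in all. The share of members called, 10.0%, is 1 gene of 10, and it lies near the 12.7% of all genes called lower. Whether it differs from the share of all genes was not tested. The median log2 fold change of the members was -0.07, and that of all genes tested was 0.0056. For 4 members, HSP90B1, XBP1, HSPA5 and PDIA4, the groups did not overlap and p21 ON was the lower, and for none was it the higher without overlap. Of all genes, 21.3% were lower and 19.1% higher without overlap, 40.4% in all. At an unadjusted p under 0.05 in limma, 3 members were lower and 1 was higher, against 19.1% and 17.8% of all genes. On the recovered reads HSP90B1 was again the single member called, lower, by edgeR, which called 12.4% of all genes lower and 10.6% higher, and by DESeq2, which called 10.8% and 8.56%. The 10 genes together took 0.658% ± 0.024 (SD, n = 3) of the reads on genes in p21 OFF and 0.640% ± 0.013 (SD, n = 3) in p21 ON libraries. In bulk RNA, a different mix of cell states and a different level per cell cannot be told apart.

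**Figure D3:**
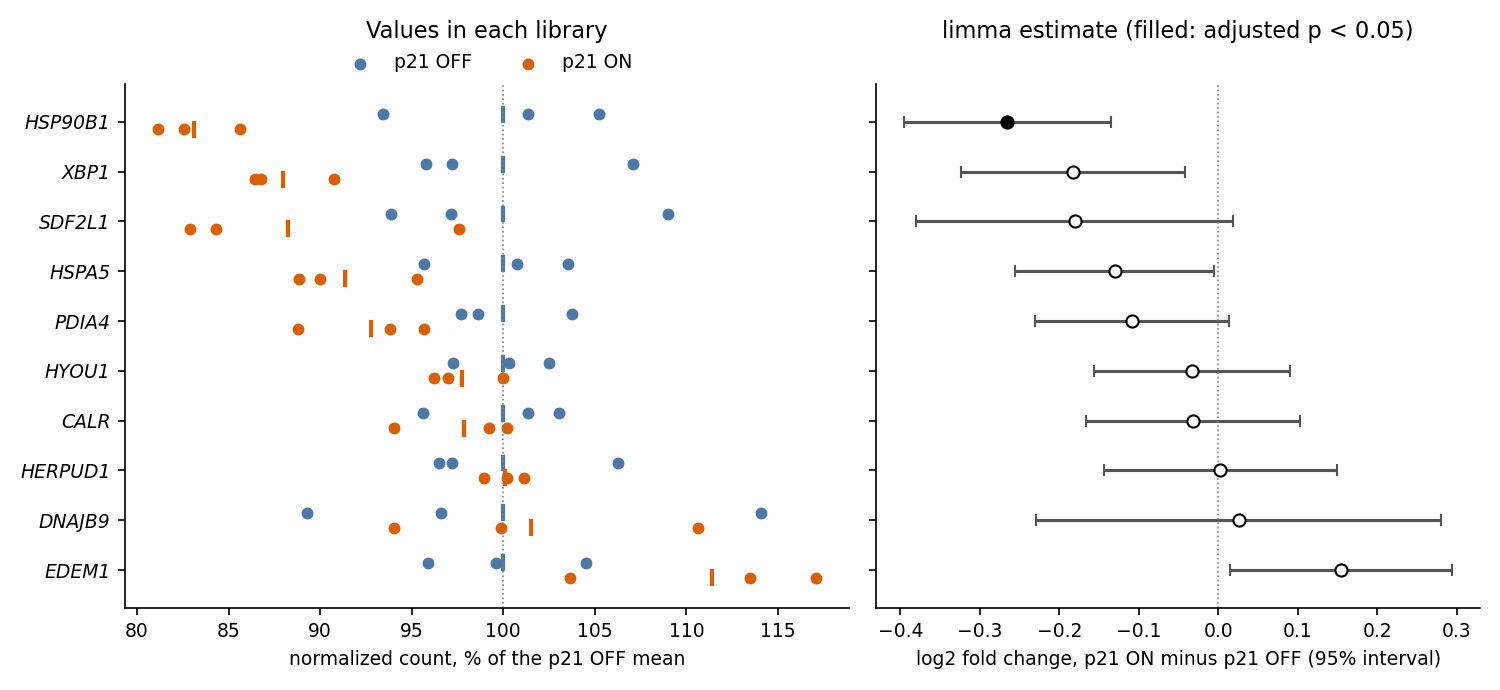
Left, normalized count of each member in each library as a percentage of its p21 OFF mean, with bars at the group means. Right, log2 fold change of p21 ON minus p21 OFF with its 95% interval from limma, filled where the adjusted p-value is under 0.05. HSP90B1, at a log2 fold change of -0.27, is the only filled point, and EDEM1, at 0.15, lies farthest to the right.

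HSP90B1 lies on chromosome 12 of GRCh37, the build of hg19, from 104323885 to 104347709 on the plus strand, and its product folds a limited set of clients that includes integrins and Toll-like receptors. Its normalized counts were 17103, 15183 and 16478 with p21 OFF, compared with 13419, 13922 and 13190 with p21 ON. The groups did not overlap, and the lowest p21 OFF library, replicate 2, stood above the highest p21 ON library, also replicate 2. The gene fell by 0.27 on the log2 scale (standard error 0.06, 95% interval -0.40 to -0.14, limma adjusted p = 0.00531 by Benjamini-Hochberg). This is a drop of 16.8% from a p21 OFF level of 16255 ± 979 (SD, n = 3) to 13511 ± 374 (SD, n = 3). It was called lower under each of 17 alternatives, with log2 fold changes from -0.35 to -0.22 and adjusted p-values from 0.000341 to 0.0391, edgeR and DESeq2 on the recovered reads included. Exons of HSP90B1 overlap those of TTC41P and UQCC6 on the opposite strand. UQCC6, listed under its older symbol C12orf73, had 113.3 to 164.5 normalized counts in the 6 libraries and a log2 fold change of 0.0054. The microRNA gene MIR3652 overlaps an exon of HSP90B1 on the same strand. Exons of CALR, HYOU1 and EDEM1, and of several list genes, DDIT3 and VLDLR among them, also overlap exons on the opposite strand. The part of these overlaps in the counts was not tested.

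HSPA5, on chromosome 9 from 127997132 to 128003661 on the minus strand, binds unfolded chains and holds the sensors inactive. It had 12826, 11855 and 12482 normalized counts in p21 OFF libraries and 11004, 11806 and 11146 in p21 ON libraries. The groups did not overlap, although p21 OFF and p21 ON replicate 2 lay close together. Its log2 fold change of -0.13 (standard error 0.06, 95% interval -0.26 to -0.0053) did not pass the test over all genes (limma adjusted p = 0.120), and the adjusted p-value lay between 0.0536 and 0.345 in the 17 alternatives. Library size scaling brought the change of HSPA5 to -0.09. CALR, on chromosome 19 from 13049392 to 13055303 on the plus strand, had 45442, 42882 and 46191 normalized counts with p21 OFF and 42172, 44932 and 44500 with p21 ON. The groups overlapped, and the log2 fold change of CALR was -0.03 (95% interval -0.17 to 0.10, limma adjusted p = 0.757). With library size scaling the sign of CALR turned, at 0.0125, as it did with the length trend taken out, at 0.0469.

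HYOU1, on chromosome 11 from 118914899 to 118927938 on the minus strand, encodes a large HSP70-like protein that exchanges the nucleotide of BiP. It had 20344, 20985 and 21441 normalized counts in p21 OFF and 20129, 20296 and 20922 in p21 ON libraries. These ranges overlapped, with a log2 fold change of -0.03 (95% interval -0.16 to 0.09, limma adjusted p = 0.718) that also turned sign, to 0.011, with library size scaling. PDIA4, on chromosome 7 from 148700154 to 148725754 on the minus strand, forms and rearranges disulfide bonds. Its values were 8378, 8456 and 8896 normalized counts with p21 OFF and 7616, 8047 and 8203 with p21 ON. All p21 ON values were lower, but the log2 fold change of -0.11 (95% interval -0.23 to 0.01) was not called (limma adjusted p = 0.185). It was -0.06 with library size scaling and -0.05 with the length trend taken out.

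The co-chaperones of BiP were not called in either direction. SDF2L1, on chromosome 22 from 21996591 to 21998588 on the plus strand, encodes a partner of ER DnaJ proteins that keeps clients from aggregating. It had 349.1, 300.7 and 311.2 normalized counts with p21 OFF and 270.1, 265.6 and 312.6 with p21 ON. Of the p21 ON libraries, replicate 3 reached into the p21 OFF range, and the log2 fold change was -0.18 (standard error 0.09, 95% interval -0.38 to 0.02, limma adjusted p = 0.178). The change of SDF2L1 was -0.0062 with the length trend taken out and -0.12 without p21 OFF replicate 1. DNAJB9, on chromosome 7 from 108210311 to 108215294 on the plus strand, encodes the DnaJ protein ERdj4, which targets misfolded clients and represses IRE1. Its values were 159.5, 135.1 and 124.9 normalized counts with p21 OFF and 131.5, 154.7 and 139.7 with p21 ON, from 113 to 173 reads a library. The groups overlapped, and of all members its interval was the widest, a log2 fold change of 0.03 with a 95% interval from -0.23 to 0.28 (limma adjusted p = 0.8999). Leaving out either p21 ON replicate 2 or p21 OFF replicate 3 turned its sign, at -0.04 and -0.05.

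HERPUD1 and EDEM1 serve ER-associated degradation, which returns misfolded proteins to the cytosol for the proteasome. HERPUD1, on chromosome 16 from 56966054 to 56978776 on the plus strand, organizes the ubiquitin ligase complex at the ER membrane. It had 689.5, 753.8 and 684.5 normalized counts in p21 OFF and 717.1, 701.8 and 710.8 in p21 ON libraries. The p21 ON values lay inside the p21 OFF range, and the log2 fold change of 0.0027 had a 95% interval from -0.14 to 0.15 (limma adjusted p = 0.983). Its sign turned with TMM scaling (-0.0071) and without p21 OFF replicate 1 (-0.017) or 3 (-0.022) or without p21 ON replicate 1 (-0.0046).

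EDEM1, on chromosome 3 from 5229331 to 5261643 on the plus strand, is known for directing mannose-trimmed glycoproteins to degradation. It had 1349, 1299 and 1416 normalized counts in p21 OFF and 1537, 1586 and 1404 in p21 ON libraries. Replicates 1 and 2 of p21 ON lay above all p21 OFF libraries, while replicate 3 lay within their range. The log2 fold change was 0.15 (standard error 0.07, 95% interval 0.01 to 0.29, limma adjusted p = 0.0998), the highest of the 10. With library size scaling EDEM1 was called higher at 0.20 (limma adjusted p = 0.0393).

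XBP1, on chromosome 22 from 29190543 to 29196585 on the minus strand, encodes the transcription factor whose mRNA IRE1 splices. It had 1202, 1075 and 1091 normalized counts with p21 OFF and 974.4, 1019 and 970.2 with p21 ON. The groups did not overlap, and the log2 fold change of -0.18 (standard error 0.07, 95% interval -0.32 to -0.04) fell short of the threshold (limma adjusted p = 0.0570). With TMM scaling XBP1 was called lower at -0.19 (limma adjusted p = 0.0447), and with the length trend taken out its change was -0.11. Counts per gene do not separate the spliced and unspliced mRNA, so the activity of IRE1 on XBP1 was not measured.

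The elements printed above occur in other genes too, and those genes were described in the same way. Outside the members, 22 tested genes had an ERSE or ERSE-II in a promoter window. Of these, 1 was called higher and 4 lower in p21 ON cells, 22.7%, next to 23.2% of all genes, and their median log2 fold change was -0.08. SYNPO was the gene called higher, and SHCBP1, RUVBL2, EIF2A and PLS3 were the genes called lower, named here after their values were seen. SHCBP1 had the largest change among them, -1.45 on the log2 scale (limma adjusted p = 2.57e-10). ER genes with the element that were not called include FICD, which modifies BiP, at 0.30, SERP1 at -0.14, PDIA6 at -0.08, CRELD2 at -0.02 and CANX at -0.01 on the log2 scale.

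Around the members, 7 lists of ER genes with 136 different symbols were examined, of which 133 passed the filter. In these lists 6 genes were called higher and 18 lower, 18.0% of those tested, next to 23.2% of all genes (10.5% higher and 12.7% lower). All 6 higher genes belonged to the list of PERK-ATF4-CHOP outputs. Under some alternatives genes outside it were called higher as well, 2 of 10 with the length trend taken out, and 1 each with library size scaling (of 7) and without p21 OFF replicate 1 (of 7), 2 (of 6) or 3 (of 6). Without p21 ON replicate 1 the lower genes numbered 6 and without p21 ON replicate 3 they numbered 9, and library size scaling left 10. Of the 133 log2 fold changes 88 were negative and 45 positive, with a median of -0.06, next to 0.0056 over all genes. Without overlap 46 genes were lower and 10 higher, next to 21.3% and 19.1% of all genes. At an unadjusted p under 0.05 in limma 40 were lower and 7 higher, next to 19.1% and 17.8% of all genes. Whether these shares differ from those of all genes was not tested.

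Among 24 further ER chaperones and oxidoreductases, 4 were called lower, none higher by limma, also at an unadjusted p under 0.05, and 20 were neither. The share called was 16.7%, next to 23.2% of all genes, and the median log2 fold change was -0.06. Without overlap 8 of the 24 were lower and 0 higher, next to 21.3% and 19.1% of all genes. At an unadjusted p under 0.05 in limma 7 were lower, next to 19.1% of all genes. MANF, a secreted protein that stabilizes BiP complexes, had 1853 ± 118 normalized counts with p21 OFF and 1490 ± 120 with p21 ON (SD, n = 3 each). It fell by 0.32 on the log2 scale (limma adjusted p = 0.00412), a change that was called in each of 17 alternatives and was -0.21 with the length trend taken out. SDF2, the paralogue of SDF2L1, fell by 0.32 and CNPY2 and FKBP2 fell by 0.24 and 0.20 on the log2 scale, but these calls were lost in 4, 7 and 7 of the alternatives. P4HB, a protein disulfide isomerase, had 44612 ± 2359 normalized counts with p21 OFF and 46880 ± 1615 with p21 ON (SD, n = 3 each, limma adjusted p = 0.452). CANX, the membrane-bound partner of calreticulin, had a log2 fold change of -0.01.

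The sensors themselves were not called in either direction. ERN1 had 195.3 ± 44.4 normalized counts with p21 OFF and 208.4 ± 15.1 with p21 ON (SD, n = 3 each, limma adjusted p = 0.564). EIF2AK3 had 1065 ± 26.6 and 1014 ± 20.1 normalized counts (SD, n = 3 each), differing by -0.07 on the log2 scale (limma adjusted p = 0.450), and ATF6 1043 ± 48.3 and 967.7 ± 4.26, a log2 fold change of -0.11 (limma adjusted p = 0.246). After a trend on exonic length was taken out of each library, EIF2AK3 and ATF6 were called lower, at -0.19 and -0.20. Of the 14 sensors and transducers tested, only RTCB, the ligase that rejoins XBP1 mRNA during splicing, was called, 7.14% next to 23.2% of all genes. Its log2 fold change was -0.27 (limma adjusted p = 0.0107), and without p21 ON replicate 1 or p21 ON replicate 3 it was not called, at -0.23 and -0.25.

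In the list of PERK-ATF4-CHOP outputs, most calls were higher in p21 ON cells. Counts of mRNA do not measure the activity of PERK, and whether PERK acted on these genes was not tested. Of 12 genes tested, 6 were higher, 2 lower and 4 neither, 66.7% called next to 23.2% of all genes, with a median log2 fold change of 0.20. CHAC1, which degrades glutathione, went from 101.7, 92.2 and 88.7 normalized counts with p21 OFF to 139.7, 127.9 and 161.5 with p21 ON. Its groups did not overlap, and it rose by 0.59 on the log2 scale (standard error 0.13, limma adjusted p = 0.00284). VLDLR, a lipoprotein receptor, rose by 0.45, the transcription factor ATF3 by 0.41, the pseudokinase TRIB3 by 0.38 and asparagine synthetase, ASNS, by 0.37, and these 5 genes were called in each of 17 alternatives. DDIT3 rose by 0.25 (limma adjusted p = 0.0494), a call that was lost in 11 of the 17 alternatives, each left-out library but p21 OFF replicate 1 among them. The mRNA of ATF4 itself went the other way, from 4059, 3917 and 3429 to 2830, 3088 and 3062 normalized counts. It fell by 0.34 on the log2 scale (standard error 0.07, limma adjusted p = 0.00171). CEBPB also fell, by 0.24, and was not called without p21 ON replicate 1 (-0.24) or 2 (-0.17) or p21 OFF replicate 3 (-0.22). Its call was lost in 6 of the 17 alternatives.

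For genes that bring proteins into the ER and out of it, the shares called lower were 12.5% to 16.7% in 3 lists, near the 12.7% of all genes. Of 24 genes of translocation and signal peptide cleavage, 3 were lower and 21 neither, 21 of 24 log2 fold changes were negative, and the median was -0.15. Without overlap 15 of these 24 were lower, and at an unadjusted p under 0.05 in limma 14 were, with none higher by either measure. Of all genes 21.3% and 19.1% were lower by these measures. In the N-glycosylation list 5 and 4 of 18 were, and in the list of ER exit 4 and 6 of 20. SSR2, a subunit of the translocon-associated complex, went from 11490, 10752 and 10223 to 8171, 8281 and 8239 normalized counts, a fall of 0.39 on the log2 scale (limma adjusted p = 0.000133). SEC61G, a subunit of the translocation channel, fell by 0.33 and SSR3 by 0.19, and neither was called without p21 ON replicate 1 (-0.32 and -0.22) or p21 ON replicate 3 (-0.27 and -0.13). Of the 17 alternatives, the call of SEC61G was lost in 4 and that of SSR3 in 10, edgeR and DESeq2 on the recovered reads among the latter. Of 18 genes of N-glycosylation and glycoprotein folding control, ALG8, OSTC and DAD1 were lower, by 0.44, 0.31 and 0.29, and none was higher, although 1 was without p21 OFF replicate 3. OSTC was not called without p21 ON replicate 3 (-0.23) or p21 OFF replicate 1 (-0.25), and DAD1 not without p21 ON replicate 1. Of 20 genes of ER exit and retrieval, SURF4, TMED9 and SEC13 were lower, by 0.28, 0.20 and 0.19, and SURF4 alone was called in each alternative. In this list 1 gene was called higher without p21 OFF replicate 1 and with the length trend taken out. Of 22 further degradation genes, UFD1 and AUP1 were lower, by 0.21 and 0.20, and 20 were neither, 9.09% called next to 23.2% of all genes. Both calls were lost without p21 ON replicate 1 or 3 or p21 OFF replicate 2, and in 5 (UFD1) and 8 (AUP1) of the 17 alternatives in all.

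The cytosolic heat shock genes, which serve folding outside the ER, were mostly called lower. Of 18 tested, 15 were lower, 1 was higher and 2 were neither, 88.9% called next to 23.2% of all genes. The median log2 fold change was -0.30. The lower count was 11 to 15 with each library left out in turn. HSPA8, the constitutive HSP70 of the cytosol, went from 35787, 35984 and 34304 to 26133, 28965 and 26698 normalized counts, a fall of 0.38 on the log2 scale (limma adjusted p = 0.000400). HSP90AB1 went from 17600, 16914 and 16186 to 13409, 14335 and 13140, a fall of 0.31 (limma adjusted p = 0.00157). The inducible HSPA1B fell by 0.67 and HSPA1A by 0.95, but these genes are nearly identical in sequence and their reads could have been split between them. HSPA1A had only 18 to 77 reads a library, and the standard error of its change was 0.23. HSPA4L, which rose by 0.27, was not called without p21 ON replicate 2 (0.25) or p21 ON replicate 3 (0.26).

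**Figure D4:**
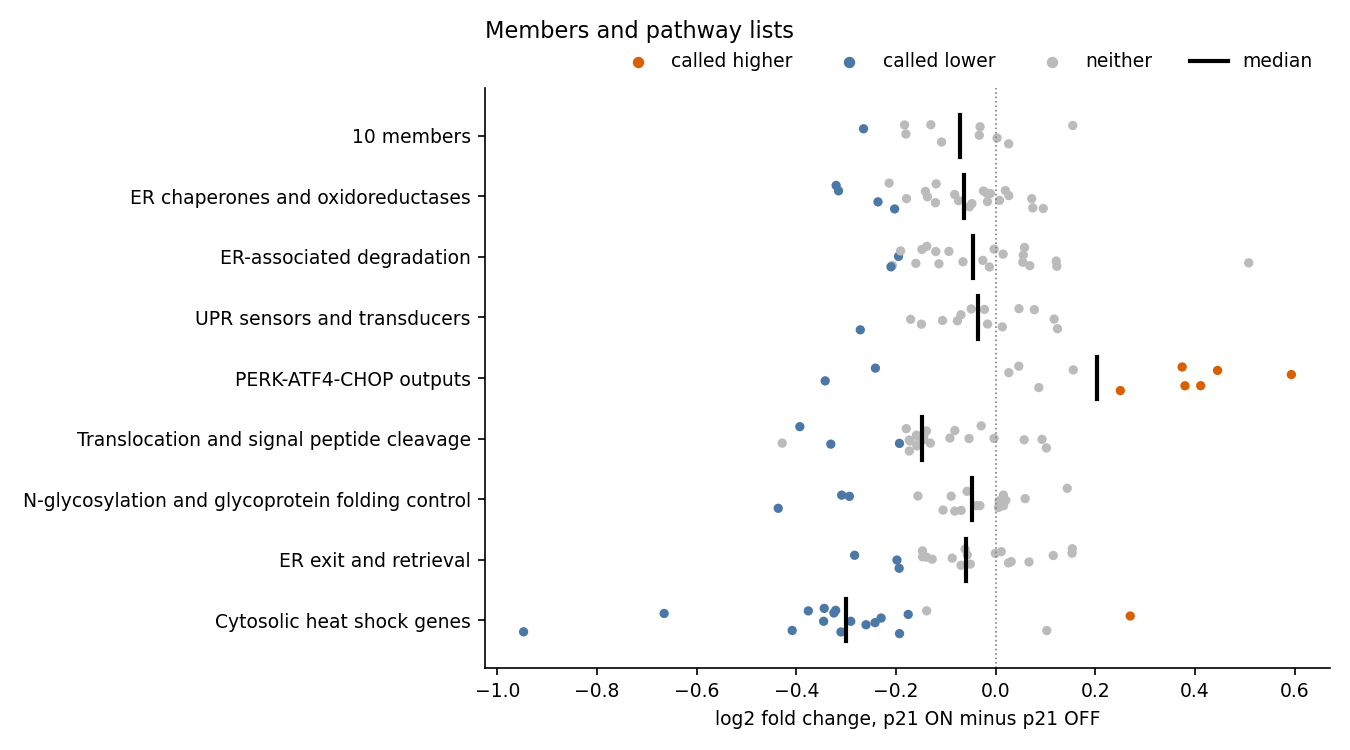
Log2 fold change of p21 ON minus p21 OFF for the 10 members and for each tested gene of 8 lists, with a black bar at the median of each. Blue points were called lower and orange points higher by limma. The cytosolic heat shock genes have a median of -0.30, the PERK-ATF4-CHOP outputs 0.20 and the members -0.07.

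Because the ER and the cytosol hold related chaperones, 3 pairs chosen after their values were seen were compared within each library as the difference of their log2 values. HSP90B1 minus HSP90AB1 went from -0.06 ± 0.09 in p21 OFF to -0.01 ± 0.03 in p21 ON cells (SD, n = 3 each), a change of 0.05 (exact two-sided permutation test, p = 0.7). HSPA5 minus HSPA8 went from -1.51 ± 0.08 to -1.27 ± 0.02 (SD, n = 3 each), a change of 0.25, and the groups were apart (exact two-sided permutation test, p = 0.1, adjusted over the 3 pairs p = 0.15). HSP90B1 minus HSPA5 went from 0.39 ± 0.03 to 0.26 ± 0.03 (SD, n = 3 each), a change of -0.14, and the groups were again apart (exact two-sided permutation test, p = 0.1, adjusted p = 0.15). An exact test of 3 libraries against 3 cannot go below 0.1.

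The gene whose pattern over the 6 libraries was nearest to HSPA5 was not a member. Members are few among the genes compared, so this outcome was likely beforehand, and no test was made of it. By the root mean square distance between log2 profiles, each centred on its own mean, MPHOSPH10, RNF20 and GDE1 were the nearest of 11397 genes, at 0.0107, 0.0141 and 0.0142. Among the members XBP1 was nearest to HSPA5 at 0.0407, rank 233. PDIA4 lay at 0.055, rank 789, and CALR at 0.0568, rank 879. HSP90B1 had rank 1687 and DNAJB9 rank 5405, and EDEM1 was the farthest at 0.152, rank 6891.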

How the data were processed

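SaOS-2 RNA had been prepared by the authors as stranded mRNA libraries, sequenced in 1 lane with single-end reads, mapped to hg19 with STAR, counted on genes with HTSeq and divided by DESeq2 size factors. The deposited signal of a gene in a library is its normalized count. Tool versions, and whether counting used strand, are not given in the sources used here. Reads were recovered by dividing by the step of each column, and 100% of values came out whole (tolerance 0.001). All value columns were assigned from the labels. The labels do not say that replicates came from separate cultures, though the methods call replicates biological, so p-values measure the spread between these libraries.

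The test planned for normalized values was limma 3.58.1 with an eBayes trend, run in R 4.3.3 on log2(value + 1) with no covariate, over 13255 genes with a mean of at least 10. The threshold was an adjusted p-value under 0.05 (Benjamini-Hochberg). The log2(value + 1) scale understates the change of low genes. Alternatives were edgeR 4.0.16 and DESeq2 1.42.0 on recovered reads, library size and TMM scaling, pseudocounts of 0.1 and 10, no filter, a mean of at least 100, an adjusted p under 0.01, a replicate block, removal of a length trend, and each library left out. limma, edgeR and DESeq2 were tested on simulated counts. The changes put into these counts were larger than that of any member, so changes as small as those of the members were not tried.

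The members, lists and tests were chosen with earlier results of these data known. Genes named were the members, CDKN1A, the sensors, ATF4, DDIT3, the 2 largest called changes per direction and list, and the 3 genes nearest to HSPA5 with a mean of at least 50. ATF3, TRIB3, ASNS, CNPY2, FKBP2, SSR3, DAD1, SEC13, P4HB, CANX, PDIA6, CRELD2, FICD, SERP1, HSPA8 and HSP90AB1 fall outside this rule and were chosen after their values were seen. Lists were matched by symbol or, for 7 entries, by an older symbol in RefSeq. Gene positions and transcript lengths are from GENCODE release 44 on GRCh37, the build of hg19, matched to 21251 rows. Promoters are from RefSeq on GRCh38.p14, and no coordinates were converted.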

Additional observations from a re-analysis of the deposited data

How the results depend on the processing

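HSP90B1 was called lower under all 17 alternatives, and the median of the members stayed between -0.0909 and -0.0269. With library size scaling 1 member, EDEM1, was called higher, and with TMM scaling 2 members were called lower, XBP1 being the second. Over all genes, an adjusted p under 0.01 left 616 higher and 882 lower in place of 1393 and 1681, and with each library left out the counts ranged from 692 to 1488 higher and from 888 to 1662 lower, with the lowest counts without p21 ON replicate 1. Of all calls 45.3% were higher, and 63.0% with library size scaling (2033 higher, 1194 lower), with the median of all genes at 0.05. In the ER lists together, the genes called lower numbered 10 with library size scaling and 6 with an adjusted p under 0.01, those called higher 10 with the length trend taken out, and with each library left out 5 to 7 were higher and 6 to 20 lower. The PERK-ATF4-CHOP list had 1 gene lower with library size scaling, with the length trend taken out and with an adjusted p under 0.01, and 1 to 2 with each library left out. The heat shock list had 0 genes higher with the length trend taken out and with an adjusted p under 0.01, and 0 to 1 with each library left out. Signs turned for HYOU1 (0.011) and CALR (0.0125) with library size scaling, CALR (0.0469) and ERN1 (-0.0009) with the length trend taken out, HERPUD1 (-0.0071) with TMM scaling, HERPUD1 (-0.017, -0.0222 and -0.0046) without p21 OFF replicate 1, p21 OFF replicate 3 and p21 ON replicate 1, DNAJB9 (-0.0511 and -0.0372) without p21 OFF replicate 3 and p21 ON replicate 2, and ERN1 (-0.0735) without p21 OFF replicate 1. None of these was called in either fit. Over the 6 fits that each omit 1 library, log2 fold changes ran from -0.0511 to 0.124 for DNAJB9, from -0.0222 to 0.0473 for HERPUD1 and from -0.0735 to 0.2612 for ERN1. Of 40 called list genes, 21 were called in every alternative that tested them, HSPA1A not being tested with a mean of at least 100. The cause of these changes was not tested.

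Same-numbered libraries of the 2 groups did not deviate together (correlation over genes of the deviations from the group means, -0.0571 to -0.0245), and no library correlated best with its own number, so the numbers were not taken as pairs. With the replicate block 1407 genes were higher and 1513 lower, the member count was 0 higher and 1 lower, and HSP90B1 had an adjusted p of 0.0048 from limma. At these depths the members had 113 reads or more in every library, and for DNAJB9 a log2 change within -0.23 to 0.28 could not be told from none.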

Other observations

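Some genes of the lists are listed near 0, and whether this comes from the cells or from the counting was not tested. SERPINH1, the ER chaperone of collagen, had 1.01 ± 0.88 normalized counts with p21 OFF and 1.16 ± 2.02 with p21 ON (SD, n = 3 each). ERO1B, CREB3L3, HSPB1 and CRYAB were also under the filter of a mean of 10, so they entered no test. DERL3, a degradation factor of secretory cells, had the highest log2 fold change of the degradation list at 0.51, with all p21 ON libraries above all p21 OFF libraries, but at 35.6 ± 6.38 and 50.9 ± 7.56 normalized counts (SD, n = 3 each) it was not called (adjusted p = 0.0648 from limma). These genes were named after their values were seen.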
